A study of Mus musculus with 2 samples.

Results

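The genes described here are the extracellular and membrane components of WNT signalling in the mouse embryonic liver, with a pair of its standard target genes. They were chosen by a rule on symbols that uses no measured value, though with earlier results of these data known. The rule takes protein-coding genes named as Wnt ligands, frizzled (Fzd) receptors, secreted frizzled-related proteins (Sfrp), dickkopfs (Dkk) and R-spondins (Rspo), plus Frzb, Lrp5, Lrp6, Axin2 and Lef1. The choice took 46 of the 21474 protein-coding genes and of the 43346 mouse genes in the tables. By role they were 19 ligands, 10 receptors, 2 co-receptors, 5 secreted frizzled-related proteins (Frzb included), 4 dickkopfs, 4 R-spondins and 2 target genes.

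Total RNA was sequenced from whole livers of B6NCrl mouse embryos at embryonic day 11.5. The series has 1 group of 2 libraries, labelled biological replicates 1 and 2. Each is a pool of male and female embryos with no genetic change or treatment stated; replicate 1 held 109 embryos, and the sources used here do not give the number in replicate 2. Each library began from 10 ng of RNA longer than 200 nucleotides. With no control group, no condition could be tested and no p-value is given: levels are described within the tissue, and the libraries are compared with each other as a check of how well each level repeats. Replicates 1 and 2 held 34344230 and 31477397 estimated counts. All 8 liver identity markers and all 8 red cell markers were detected. Heart muscle genes, which mark another organ, were present too: 8 of 10 were detected, and their summed level was 357 TPM in replicate 1 and 171 TPM in replicate 2. The median log2 ratio of these 10 genes, replicate 1 over replicate 2, was 1.20, and 10 of 10 lay above 0. Other foreign markers differed less between the libraries. Of the gut, stomach and lung list 1 of 7 was detected (17.5 and 19.5 TPM summed), nearly all of it Barx1 at 16.15 and 17.96 TPM. Of the neural list 3 of 7 were detected (23.4 and 26.3 TPM summed), led by Gap43 at 15.5 and 17.1 TPM, and Neurod1 was at 0.07 and 0.08 TPM. Levels are given in TPM, a length-corrected share of all transcripts scaled to a fixed total that includes the spike-ins, which held 14.6% of it in replicate 1 and 11.1% in replicate 2.

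WNT ligands are lipid-modified secreted proteins that bind a frizzled receptor together with the co-receptor LRP5 or LRP6. In the canonical branch this stops the destruction of beta-catenin, which then works with TCF and LEF factors on target genes such as Axin2. Secreted frizzled-related proteins and dickkopfs restrain the signal outside the cell, whereas R-spondins strengthen it by keeping frizzled receptors from being removed. In the adult liver the pathway is known for setting the gene programme of hepatocytes around the central vein, and in the fetal organ for a part in the growth of hepatoblasts.

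By summed TPM, secreted inhibitors of the frizzled-related family were the most abundant class. By the median gene of a class, ligands were lowest, at 0.35 and 0.34 TPM in replicates 1 and 2. The frizzled-related median was 2.69 and 4.21 TPM, under that of the co-receptors (6.465 and 6.45 TPM) and of the dickkopfs (4.975 and 5.36 TPM). The 5 genes of the frizzled-related family summed to 51.8 and 54.3 TPM in replicates 1 and 2. Frizzled receptors followed with 37.5 and 44.7 TPM from 10 genes. The 19 ligands together reached 24.9 and 21.4 TPM. The sum of frizzled-related inhibitors was therefore 2.09 and 2.54 times the ligand sum, and the receptor sum was 1.51 and 2.09 times the ligand sum. Dickkopfs came to 19.1 and 19.7 TPM, R-spondins to 14.5 and 14.6 TPM, co-receptors to 12.9 and 12.9 TPM, and the target genes to 5.77 and 4.70 TPM. R-spondins stood at 0.759 and 0.740 of the dickkopf sum. Of that dickkopf sum, 48.0% and 45.1% was Dkk3, which is not known as a clear WNT inhibitor. The ratio therefore does not set strengthening genes against inhibitors. These are amounts of RNA, and in a whole organ fewer cells of a type and less RNA per cell cannot be told apart.

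**Figure D1:**
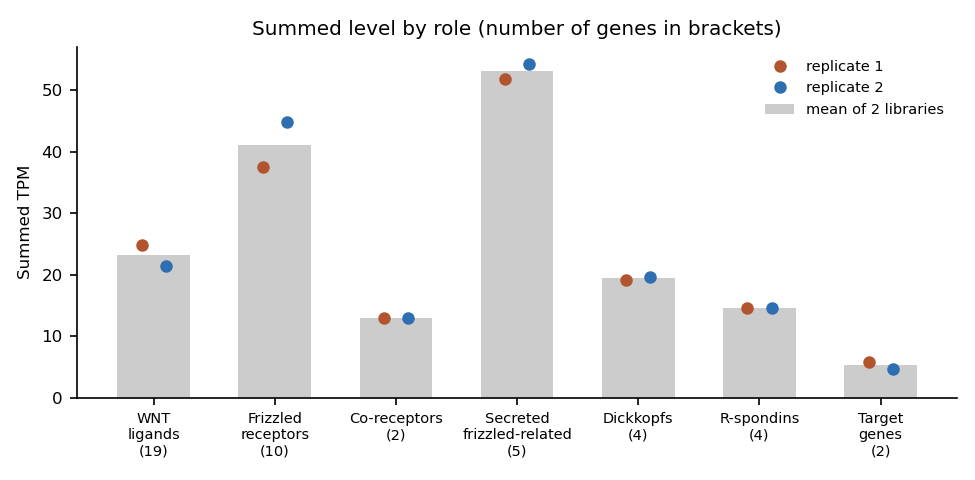
Summed TPM (vertical axis) of the genes of each role. Points are the 2 libraries and grey bars their mean; the number of genes in each role stands in brackets. The frizzled-related inhibitors lie highest in both libraries, at 51.8 and 54.3 TPM, above the receptors at 37.5 and 44.7 TPM.

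Detection was set at 1 TPM, to be reached in each library. By this rule 26 of 46 members were detected, against 56.6% of all protein-coding genes, so the members' share is near the background. A further 17 were under 1 TPM in both libraries, and 3 (Wnt7b, Rspo2 and Fzd8) lay on either side of the limit. The median of the members' mean levels was 1.73 TPM, against 2.86 TPM over all protein-coding genes. Together the members made up 0.0195% of mouse gene TPM in replicate 1 and 0.0194% in replicate 2. They rested on 14556 and 13306 counts.

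**Figure D2:**
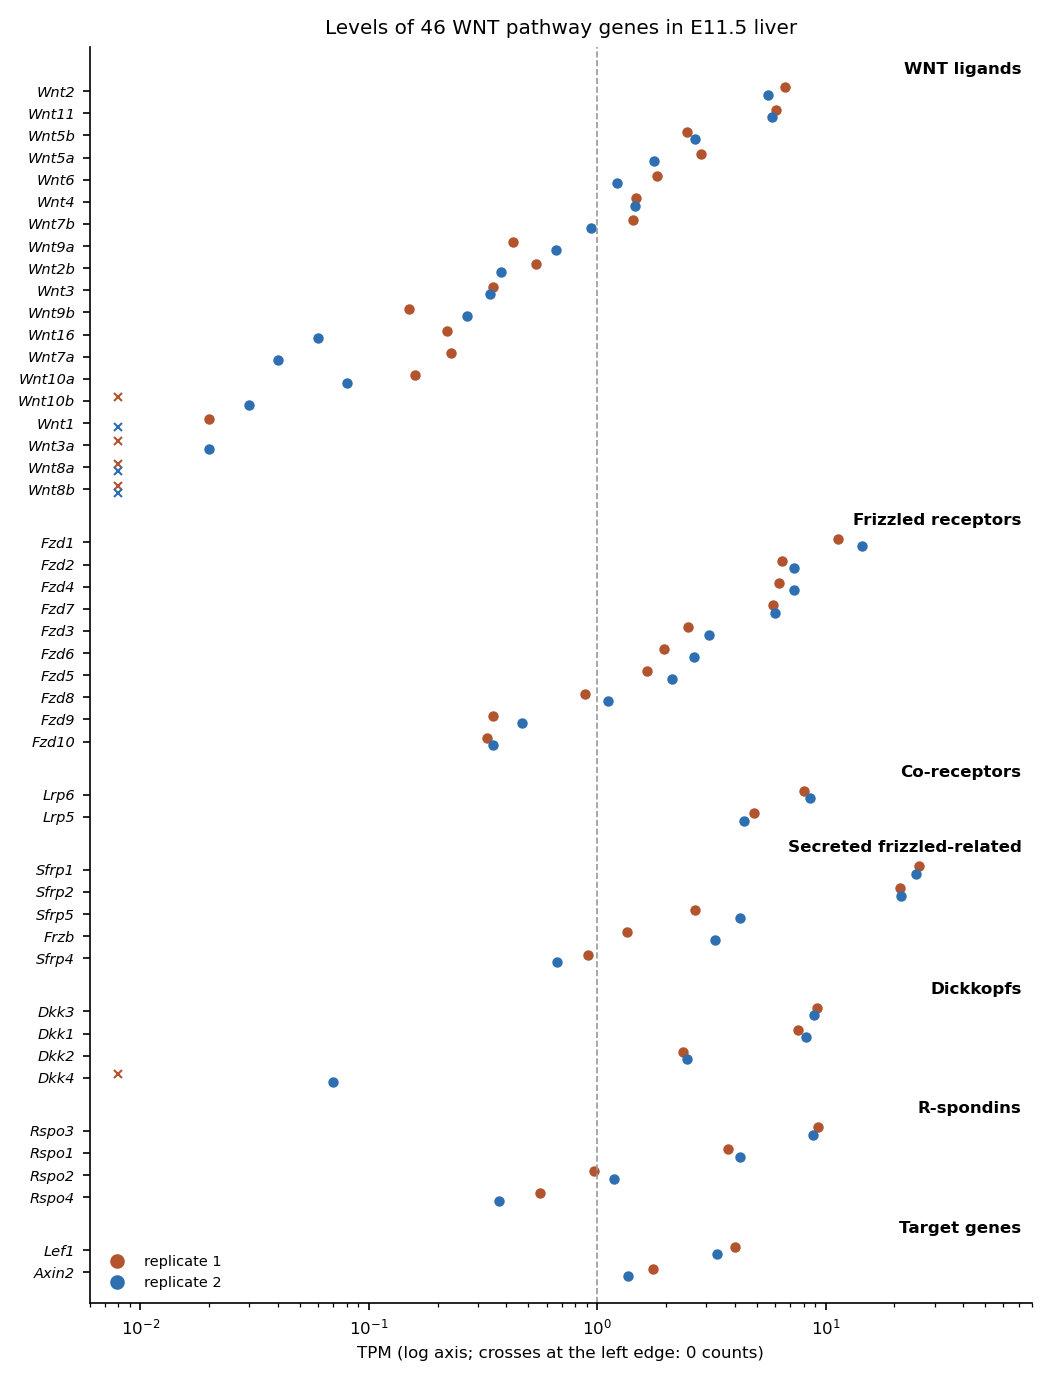
TPM (log axis) of each of the 46 genes, grouped by role, in replicate 1 (brown) and replicate 2 (blue). Crosses at the left edge mark 0 counts and the dashed line marks 1 TPM. Sfrp1 and Sfrp2 lie farthest to the right, and 12 of 19 ligands lie left of the line in both libraries.

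Of the ligands, Wnt2 and Wnt11 led at about the same level. Wnt2, which in adult liver is made by endothelial cells and drives the canonical branch, was at 6.62 and 5.60 TPM in replicates 1 and 2. Wnt11, best known for signals through cell polarity, was at 6.07 and 5.84 TPM. Their order turned round between the libraries, so they do not differ beyond the spread. Wnt2 held 26.4% ± 0.333 (SD, n = 2) of all ligand TPM, and 23.8% by posterior mean TPM. It lies on chromosome 6 from 17988940 to 18030585 (GRCm38, minus strand). It was at a higher TPM than 57.9% of protein-coding genes.

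The next pair were the closely related non-canonical ligands Wnt5b, at 2.47 and 2.69 TPM, and Wnt5a, at 2.85 and 1.77 TPM. Their encoded proteins share 79.3% of residues, and their order was not the same in the 2 libraries. Wnt11 stood 2.31-fold above Wnt5b. This was the only step between neighbouring ligands in which the order was the same in both libraries, the deposited credibility intervals were apart in both, and the gap exceeded the difference between libraries. Over protein-coding transcripts alone the step was 1.36-fold, with Wnt11 at 3.07 and 3.98 TPM and Wnt5b at 2.46 and 2.69 TPM. Wnt6 (1.83 and 1.22 TPM) and Wnt4 (1.48 and 1.46 TPM), a ligand known for kidney and gonad development, completed the 6 detected ligands. Wnt7b fell just short, with 1.43 and 0.94 TPM. Wnt5b overlaps Fbxl14 on the other strand, which was at 5.29 and 5.40 TPM. Whether reads were counted by strand is not stated, and whether the exons of these genes overlap was not examined. If they do, the level of Wnt5b is uncertain. Its estimated counts were whole numbers, 137 in replicate 1 and 132 in replicate 2.

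The other 12 ligands were under 1 TPM in both libraries. Wnt9a, Wnt2b, Wnt3 and Wnt9b lay between 0.15 and 0.66 TPM. Wnt9b, a canonical ligand of endothelial cells in adult liver, had 17 counts in replicate 1 and 27 in replicate 2. Wnt16, Wnt7a and Wnt10a had between 2 and 18 counts in a library. Wnt10b, Wnt1 and Wnt3a had 1 count each over both libraries. Wnt8a and Wnt8b had 0 counts in either library. This allows a level of up to 0.0706 and 0.0809 TPM for Wnt8a, and 0.0355 and 0.0406 TPM for Wnt8b, in replicates 1 and 2. These limits correspond to 3 counts and cover counting error only.

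Some ligand genes lie next to each other in the genome, and of these Wnt6 alone reached 1 TPM. In 4 pairs the gap between the genes was under 100 kb. On chromosome 1, Wnt6 and Wnt10a lie 6193 bases apart on the same strand. Wnt6 was at 1.83 and 1.22 TPM there, and Wnt10a at 0.16 and 0.08 TPM. On chromosome 11, Wnt9a and Wnt3a lie 16175 bases apart, with 0.43 and 0.66 TPM for Wnt9a and 0 and 0.02 TPM for Wnt3a. Also on chromosome 11, Wnt3 (0.35 and 0.34 TPM) and Wnt9b (0.15 and 0.27 TPM) lie 24328 bases apart. On chromosome 15, Wnt1 and Wnt10b lie 11706 bases apart, and each had at most 1 count in a library. The last 3 pairs are divergent, and no gene of theirs reached 1 TPM.

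Several ligands have more than 1 annotated start, and reads were shared out between transcripts from different starts. Starts within 500 bases of each other were joined and numbered along the gene; this grouping was made after the values had been seen. The 250 bases before the Wnt11 and Wnt5b starts that were assigned counts are printed here to show how unlike they are. Those of Axin2, the pathway's standard target gene, are printed for comparison. They are from the RefSeq promoter table on GRCm38.p6, on the strand of the gene, and any match to the TCF/LEF core motif CTTTGAT or its reverse complement ATCAAAG is in capitals.
Wnt11 start 1, chr7:98834862-98835111, plus strand: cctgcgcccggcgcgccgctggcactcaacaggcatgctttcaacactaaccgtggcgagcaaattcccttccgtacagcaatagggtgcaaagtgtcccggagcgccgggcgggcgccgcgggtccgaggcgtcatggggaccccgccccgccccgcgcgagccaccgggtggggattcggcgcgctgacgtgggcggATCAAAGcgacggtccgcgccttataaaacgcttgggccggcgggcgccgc
Wnt11 start 2, chr7:98838595-98838844, plus strand: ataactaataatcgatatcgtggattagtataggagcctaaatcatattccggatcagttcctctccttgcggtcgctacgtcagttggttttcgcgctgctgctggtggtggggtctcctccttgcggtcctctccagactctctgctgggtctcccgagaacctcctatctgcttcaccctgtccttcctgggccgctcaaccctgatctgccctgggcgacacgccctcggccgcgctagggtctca
Wnt5b start 1, chr6:119544348-119544597, minus strand: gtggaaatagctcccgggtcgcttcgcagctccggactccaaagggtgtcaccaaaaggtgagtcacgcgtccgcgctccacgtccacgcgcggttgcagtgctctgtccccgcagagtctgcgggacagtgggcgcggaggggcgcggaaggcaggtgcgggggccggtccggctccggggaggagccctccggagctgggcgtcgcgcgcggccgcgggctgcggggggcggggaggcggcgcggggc
Wnt5b start 2, chr6:119467212-119467461, minus strand: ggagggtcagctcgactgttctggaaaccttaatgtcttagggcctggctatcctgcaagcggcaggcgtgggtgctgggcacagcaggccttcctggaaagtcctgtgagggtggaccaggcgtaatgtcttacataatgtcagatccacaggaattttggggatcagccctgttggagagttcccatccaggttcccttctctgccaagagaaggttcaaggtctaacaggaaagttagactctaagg
Axin2 start 1, chr11:108920099-108920348, plus strand: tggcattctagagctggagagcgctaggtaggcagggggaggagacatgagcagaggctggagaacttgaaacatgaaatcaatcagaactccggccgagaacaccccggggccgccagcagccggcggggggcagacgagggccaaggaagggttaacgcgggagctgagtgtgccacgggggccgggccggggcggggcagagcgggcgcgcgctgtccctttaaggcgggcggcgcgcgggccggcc

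The window of Wnt11 start 1 has 37 CG pairs and a motif match 51 bases before the start, while that of start 2 has 16 CG pairs and no match. For Wnt5b the contrast is larger, with 35 CG pairs at start 1 and 4 at start 2, and neither holds the motif. The Axin2 window has 24 CG pairs and no match. None of the 5 windows printed overlaps an annotated exon. Over the 36 windows of the 30 members matched in the table, 2 (5.56%) held the motif on either strand, and over all 32851 windows 3.21% did. The match other than that of Wnt11 was at Wnt5b start 3. Its transcript, Wnt5b-201, was assigned 0 counts in both libraries, but by posterior mean it took 14.4% and 13.0% of the gene. The median number of CG pairs was 21 in the members' windows and 6 in all windows. All windows belong to 27025 genes, more than the 21474 protein-coding genes, whereas every member is protein-coding. Neither the motif share nor the CG number is therefore set against a like background. A match describes these letters only, and no match says nothing of the factor.

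Most Wnt11 TPM was assigned to transcripts that begin at start 2, which lies 3733 bases downstream of start 1. Start 2 held 61.0% in replicate 1 and 74.7% in replicate 2, and start 1 held 39.0% and 25.3%. Such shares follow from how reads were divided among annotated transcripts, and the use of a start was not measured. At start 1 nearly all of the TPM was assigned to Wnt11-202, a transcript of the nonsense-mediated decay class, at 2.37 and 1.38 TPM. The main transcript, protein-coding Wnt11-205 from start 2, was at 3.07 and 3.88 TPM.

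Wnt5b divided the other way. Its start 1 held 60.3% and 67.3% of TPM, and start 2, 77136 bases on, held 39.3% and 32.7%. Within start 1 the reads were assigned to different transcripts in the libraries, Wnt5b-203 in replicate 1 (60.6%) and chiefly Wnt5b-204 in replicate 2 (43.0%), whose starts are close together. By posterior mean the split was less sharp, with 33.0% and 25.9% for Wnt5b-203 and 27.7% and 38.8% for Wnt5b-204. For Wnt5a, start 1 held 36.8% and 63.3%, and start 4, 6640 bases on, held 44.6% and 36.7%. By posterior mean, Wnt5a-201, the transcript at start 1, took 29.1% and 42.3%. In replicate 1 a short transcript at its start 3 took 16.1% of the gene's TPM on 3.09 counts. Wnt2 was also split: a transcript of 1741 bases that the annotation release used does not hold took 42.9% and 47.9%, and the coding transcript Wnt2-201 took 57.1% and 52.1%.

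**Figure D3:**
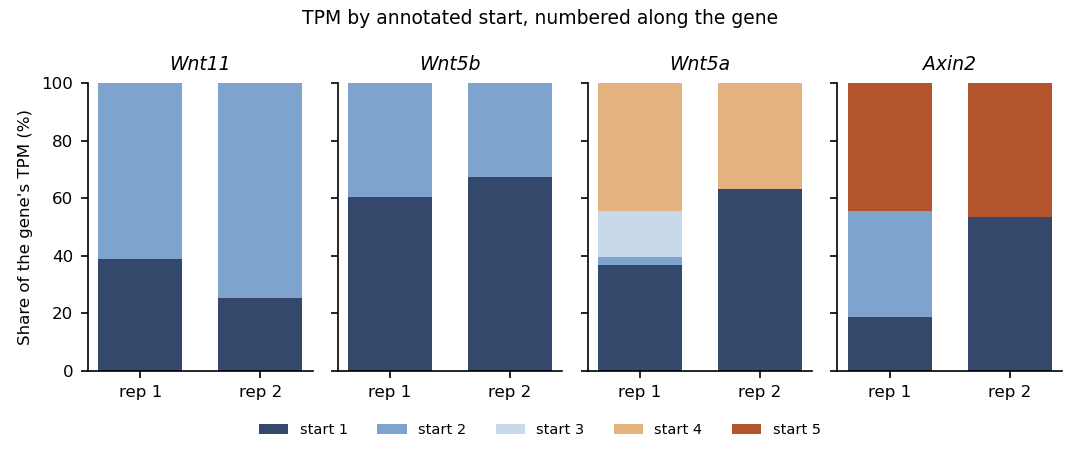
Share of each gene's TPM (vertical axis, percent) assigned to each annotated start, numbered along the gene, in the 2 libraries. Start 2 holds most of Wnt11 in both libraries, start 1 most of Wnt5b in both, and the shares of Wnt5a and Axin2 differ between the libraries.

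Fzd1 was the leading frizzled receptor. Its level was 11.28 and 14.42 TPM in replicates 1 and 2, from 1184 and 1320 counts, and made up 31.1% ± 1.54 (SD, n = 2) of receptor TPM. It lies on chromosome 5 from 4753839 to 4758035 (minus strand) and was 1.87-fold above the next receptor, an ordered step. Fzd2 (6.42 and 7.25 TPM), Fzd4 (6.24 and 7.28 TPM), which also serves as receptor for norrin, and Fzd7 (5.91 and 6.01 TPM) formed a level group without an order among them.

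Fzd1, Fzd2 and Fzd7 are close relatives in protein sequence: Fzd1 and Fzd2 share 79.1% of residues, Fzd2 and Fzd7 78.2%, and Fzd1 and Fzd7 78.1%. All 3 were among the 4 highest receptors. A second ordered step, of 2.15-fold, separated Fzd7 from Fzd3 (2.50 and 3.08 TPM), a receptor of the planar polarity branch, as is Fzd6 (1.96 and 2.64 TPM). Fzd5 was at 1.66 and 2.13 TPM, and Fzd8, which shares 70.6% of its residues, at 0.88 and 1.11 TPM. Fzd5 was 1.90-fold above Fzd8, and Fzd8 was 2.44-fold above Fzd9. Fzd9 (0.35 and 0.47 TPM) and Fzd10 (0.33 and 0.35 TPM) were under 1 TPM in both libraries. Thus 7 of 10 receptors were detected.

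Both co-receptors were present. Lrp6 was at 8.07 and 8.52 TPM, from 1770 and 1653 counts. Lrp5 was at 4.86 and 4.38 TPM. Lrp6 was 1.80-fold above Lrp5, an ordered step, and their proteins share 68.8% of residues. Of Lrp6 TPM, 90.8% and 92.1% was assigned to the coding transcript Lrp6-201. For Lrp5 the main transcript, Lrp5-201, took 51.8% and 54.2%, and a transcript of the nonsense-mediated decay class that starts 70772 bases on took 18.3% and 18.5%.

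Among the frizzled-related proteins, which bind WNT ligands through a frizzled-like domain, Sfrp1 and Sfrp2 stood far above the rest. Sfrp1 was at 25.71 and 24.87 TPM from 2836 and 2394 counts, the highest level of all 46 members. It lies on chromosome 8 from 23411502 to 23449632 (plus strand), and its TPM was above that of 77.9% of protein-coding genes. Sfrp2 was at 21.17 and 21.27 TPM, and the 1.19-fold step from Sfrp1 was ordered. Each of these inhibitors alone was thus close to the sum of the 19 ligands.

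A step of 6.31-fold led from Sfrp2 to Sfrp5, the widest ordered step between neighbours of a role. Sfrp5 was at 2.69 and 4.21 TPM, and shares 55.4% of its residues with Sfrp1. Frzb, also called Sfrp3, was at 1.35 and 3.28 TPM, and Sfrp4 at 0.91 and 0.67 TPM. The place of Frzb was not settled, since its deposited interval overlapped that of Sfrp5 in replicate 2 and that of Sfrp4 in replicate 1. Sfrp5 lay above Sfrp4 with intervals apart in both libraries. Part of the Frzb level is a matter of transcripts: in replicate 2 a non-coding transcript was given 0.89 TPM on 14.66 counts, and in replicate 1 it was listed at 0. By posterior mean this transcript took 10.7% of the gene in replicate 1 and 29.45% in replicate 2. The coding transcript of Frzb was at 1.35 and 2.39 TPM.

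Of the dickkopfs, Dkk3 and Dkk1 were highest. Dkk1, which blocks LRP5 and LRP6, was at 7.57 and 8.24 TPM. Dkk3, a divergent member not known as a clear WNT inhibitor, was at 9.17 and 8.87 TPM, and shares at most 25.1% of residues with another dickkopf. They were not ordered. Dkk2 was at 2.38 and 2.48 TPM, 3.25-fold below Dkk1 by an ordered step. Dkk4 had 0 counts in replicate 1 and 2 in replicate 2. As for the partners of dickkopfs, Kremen1 was at 3.51 and 4.23 TPM, and Kremen2 was at 0.56 and 0.48 TPM.

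Rspo3 led the R-spondins, with 9.25 and 8.80 TPM from 548 and 455 counts, or 62.1% ± 2.31 (SD, n = 2) of the class. It lies on chromosome 10 from 29452416 to 29535867 (minus strand). Rspo1 followed at 3.73 and 4.2 TPM, 2.28-fold lower, and Rspo2 at 0.97 and 1.18 TPM, 3.70-fold below Rspo1. Both steps were ordered. Rspo4 was under 1 TPM in both libraries, at 0.56 and 0.37 TPM. The receptors and ligases through which R-spondins act were present as well. Lgr4 was at 7.61 and 7.68 TPM and Lgr5 at 3.65 and 4.26 TPM, while Lgr6 was at 0.37 and 0.55 TPM. The ligases Rnf43 and Znrf3, which remove frizzled receptors, lay between 6.70 and 7.57 TPM.

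The target genes lay near the middle of protein-coding genes, with Lef1 above 52.5% of them and Axin2 above 45.3%. Lef1, a nuclear factor of the pathway and its target in many tissues, was at 4.01 and 3.34 TPM. Axin2, a scaffold of the destruction complex that is induced by the signal and limits it, was at 1.76 and 1.36 TPM, 2.37-fold below Lef1 by an ordered step, or 4.06-fold over coding transcripts alone. The call of Axin2 as detected depends on its transcripts. The main one in both libraries, with 44.2% and 46.4%, was Axin2-203, a non-coding processed transcript at start 5, which lies 23272 bases into the gene. By TPM, the coding transcripts of Axin2 summed to 0.98 and 0.72, under the limit in both libraries. By posterior mean the gene was at 2.00 and 1.79 TPM, and Axin2-203 took 39.56% and 37.25% of it. The side of the limit on which the coding transcripts lie therefore depends on the estimate used. Start 1 held 18.8% and 52.9% of Axin2 TPM, and start 2 held 36.9% in replicate 1, on 7.45 counts, and 0 in replicate 2. Axin2 had 82 and 84 counts in all.

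Of 29 members with a mean of 50 or more counts, 13 had a single transcript in the tables and 16 had several. In 14 of those 16 the same transcript was the main one in both libraries, the exceptions being Wnt5a and Wnt5b. The main transcript was protein-coding in both libraries for 15 of 16, the exception being Axin2. Lef1-202, the main transcript of Lef1, held 41.7% and 68.7%, whereas start 1 as a whole held 93.8% and 92.5%.

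Other genes of the pathway spanned a wide range of levels. Of 75 such genes outside the members, from 9 lists, 55 (73.3%) were detected, with a median of 6.01 TPM, beside the 56.6% of all protein-coding genes. Ligand secretion was represented by Wls, the carrier of WNT proteins, at 22.8 and 23.6 TPM, and by Porcn, which attaches their lipid, at 2.11 and 1.91 TPM. Of 12 further receptors and planar polarity genes 10 were detected, led by Vangl1 at 35.0 and 41.4 TPM, Ptk7 at 18.6 and 19.6 TPM and Ryk at 12.3 and 12.6 TPM. Ror2, a receptor for Wnt5a, was at 3.29 and 3.06 TPM, and Celsr1 and Celsr3 were under 1 TPM.

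Other extracellular inhibitors were mostly low, with 3 of 10 detected. Igfbp4, a binding protein of insulin-like growth factors that also restrains canonical signals, was far above the others at 248 and 259 TPM. Wif1, which binds ligands, was at 1.90 and 1.47 TPM, and Notum, an enzyme that removes their lipid, at 0.39 and 0.42 TPM. Kremen2, Apcdd1, Draxin, Cer1 and Sost were also under 1 TPM in both libraries. A list of norrin and of cofactors of norrin and WNT7 signals held 4 genes, of which 3, all cofactors, were detected. Tspan12, which assists Fzd4, was at 35.5 and 43.4 TPM, but norrin itself (Ndp) was at 0.06 and 0.07 TPM. Reck and Adgra2, cofactors of WNT7 ligands, were at 7.29 and 7.33 TPM and at 2.20 and 1.72 TPM.

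Inside the cell nearly every gene was present, with 13 of 14 genes of the cytoplasmic relay and 12 of 12 nuclear ones detected. Ctnnb1, which encodes beta-catenin, was at 188 and 210 TPM, and the kinases Csnk1a1 and Csnk1d, which act on it or on its upstream relay, were at 159 and 175 TPM and at 47.5 and 53.5 TPM. Apc2 was at 0.34 and 0.24 TPM. Among the DNA-binding factors that act with it, Tcf7l2 was highest at 37.0 and 40.2 TPM. The cofactor Pygo2 was at 27.1 and 30.3 TPM and the inhibitor Ctnnbip1 at 18.4 and 16.8 TPM. Tcf7l1, chiefly a repressor, was at 11.2 and 9.31 TPM, and Tcf7 at 4.99 and 5.42 TPM, so that Lef1 was the lowest of the 4 factors. Of 16 target genes 10 were detected, a list that includes Lef1 and Axin2. Myc (177 and 192 TPM) and Ccnd1 (50.8 and 46.8 TPM) led it, followed by Tnfrsf19 (7.97 and 8.72 TPM), though the first pair answer to many other signals. Nkd1, a feedback inhibitor, was at 5.04 and 4.23 TPM, and Sp5 was at 0.81 and 0.84 TPM. Notum, Sp8, Cdx1 and T were under 1 TPM as well.

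Of 9 genes that the pathway is known to sustain around the central vein of the adult liver, 6 were detected. The 6 include Lgr5 and Axin2, whose levels are given above. For Axin2, the side of 1 TPM on which its coding transcripts lie depends on the estimate used. Whether the pathway sustains any of them at this stage was not tested. Oat was at 120 and 144 TPM, the glutamine synthetase Glul at 109 and 102 TPM, Tbx3 at 16.5 and 16.1 TPM and Rhbg at 12.6 and 15.7 TPM. Slc1a2 (0.33 and 0.19 TPM) and Cyp2e1 (0.16 and 0.03 TPM) were under 1 TPM, and Cyp1a2 was listed at 0 counts in both libraries. Among the cell types known to make these ligands, 9 of 9 endothelial markers (281.5 and 284.2 TPM summed), 10 of 10 stellate and mesenchymal markers (572 and 570 TPM) and 6 of 7 mesothelial markers (96.6 and 91.5 TPM) were detected. Which of these cells held the members' RNA cannot be read from whole liver.

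**Figure D4:**
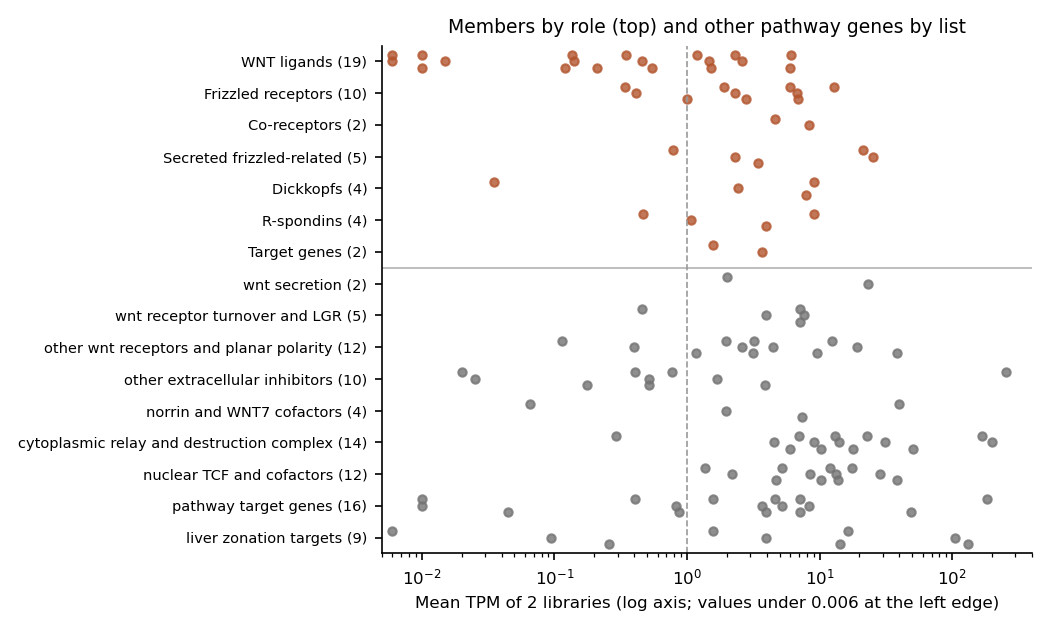
Mean TPM over the 2 libraries (log axis) of each gene, by role for the 46 members (brown, top) and by list for other pathway genes (grey, bottom; a gene may stand in more than 1 list, and Lef1 and Axin2 recur among the targets). The dashed line marks 1 TPM. All 12 genes of the nuclear list and 13 of 14 of the cytoplasmic relay lie above it in both libraries, against 6 of 19 ligands.

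The libraries gave much the same levels. Counts were scaled between them, and the log2 ratio of replicate 1 over replicate 2 was taken for the 38 members that averaged at least 10 counts. Its median was 0.01 for the members and -0.01 for all 14418 protein-coding genes at that count, and 19 of 38 members were higher in each library. Only 1 of 38 was 2-fold or more apart, against 3.07% of protein-coding genes. This was Wnt7a, with 18 counts in replicate 1 and 3 in replicate 2 (log2 ratio 2.30, interval 0.70 to 4.88), too few to rank it. Intervals are 95% exact binomial intervals and cover counting error only. The interval lay off 0 for 11 of 38 members, against 40.7% of protein-coding genes; this share depends on depth.

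Frzb differed most among the well-counted members. It had 106 counts in replicate 1 and 179 in replicate 2, a log2 ratio of -0.86 (interval -1.23 to -0.51). Sfrp5, with 125 and 171 counts, followed at -0.56 (-0.91 to -0.22), then Fzd6 at -0.35 (-0.63 to -0.07) and Fzd1 at -0.27 (-0.38 to -0.15). In the other direction, Wnt7b had 121 and 69 counts and a log2 ratio of 0.69 (0.26 to 1.15). Lef1 was at 0.36 (0.11 to 0.60), Wnt5a at 0.35 (0.10 to 0.60), Wnt2 at 0.35 (0.10 to 0.59), Lrp5 at 0.21 (0.02 to 0.40) and Sfrp1 at 0.13 (0.05 to 0.21).

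By role, 9 of 12 ligands with enough counts had the higher level in replicate 1 (median log2 ratio 0.23), and 9 of 10 receptors the lower one (median -0.21). Of all 14418 protein-coding genes at that count, 47.5% were higher in replicate 1 and 52.5% lower. With DESeq2 size factors these were 9 of 12 ligands and 8 of 10 receptors. On TPM they were 9 of 12 and 10 of 10, but there 33.0% of all genes were higher in replicate 1 and 66.5% lower. Replicate 1 is also the library with the higher heart muscle markers given above; their part in these differences was not tested. With 2 pools, a difference between libraries describes these libraries and no condition. For Axin2 the direction depends on the measure, with a log2 ratio of -0.15 on counts and 0.37 on TPM. The length by which its TPM is corrected was 1807 bases in replicate 1 and 2744 in replicate 2.

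**Figure D5:**
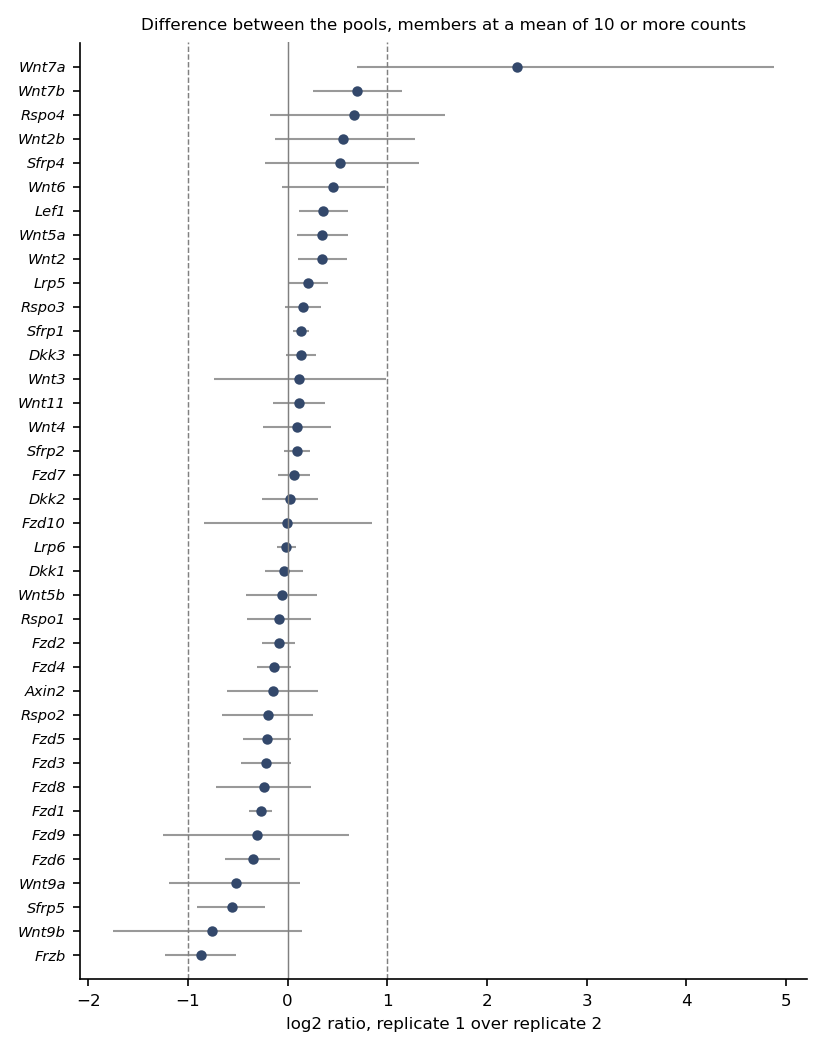
Log2 ratio of scaled counts, replicate 1 over replicate 2 (horizontal axis), of the 38 members with a mean of 10 or more counts. Points are the ratios, lines their 95% exact binomial intervals, and dashed lines mark 2-fold. Wnt7a alone lies beyond 2-fold, with a wide interval, and Frzb is lowest at -0.86.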

How the data were processed

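Gene and transcript tables of 2 total RNA-seq libraries were used, 1 from each pool. Per the labels, reads were assigned on mm10; the deposited text notes name GENCODE release M4. The aligner, the quantifier and the strand setting were not given in the sources used here. Deposited values were estimated counts, in which a model divides ambiguous reads among genes, TPM, a posterior mean TPM with a credibility interval of unstated level, and, per the file headers, the percent of a gene's output that each transcript takes. Their FPKM was not used.

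Symbols, classes, coordinates and coding sequences came from GENCODE M21 (GRCm38, the same assembly), which matched 42462 of 43346 genes by identifier; coordinates can differ from M4. The members and the 17 lists were chosen with earlier results of these data known. All members were named; of each pathway list, the 3 genes of highest mean TPM and those under 1 TPM in both libraries were named. Lgr5, Ror2, Tcf7l1, Tcf7, Nkd1 and Rhbg, and the printed sequences of Wnt11 and Wnt5b, were chosen after their values were seen. Neighbours in the order of mean TPM within a role counted as ordered if the libraries put them the same way round, their deposited intervals were apart in each, and the mean log2 ratio was larger than the gap between the libraries.

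Estimated counts, rounded to whole numbers, were scaled by TMM (edgeR 4.0.16, R 4.3.3), with spike-ins left out and a pseudocount of 0.5 counts; DESeq2 1.42.0 size factors were an alternative. Ratio intervals are 95% exact binomial (Clopper-Pearson) intervals from scipy 1.17.1, and limits for a count of 0 are 3 counts. No molecular identifiers were stated and reads are not independent molecules, so both cover counting error only. The ratio formula, without scaling, was tried on simulated counts of equal depth, with changes put only into well-counted genes. The scaling, and changes in genes with few counts, were not tested. Proteins were translated from the coding transcript with the highest TPM of each gene, aligned globally (BLOSUM62, Biopython 1.88), and identity is given over the shorter protein. Python 3.11.15 and pandas 2.3.3 did the rest.

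Of 46 members, 15 overlap another annotated gene, 14 of them one on the other strand. Reads from any stretch of exon that such genes share could not be told apart without strand. Whether their exons overlap was not examined. Estimated counts were whole numbers in both libraries for 42 of 46 members.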

Additional observations from a re-analysis of the deposited data

How the results depend on the processing

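The number of members detected was 26, and between 19 (TPM of 2) and 30 (TPM of 0.5) under the thresholds tried. It was 29 with TPM over mouse genes alone, 26 with the posterior mean, and 25 with protein-coding transcripts only, an alternative chosen after seeing the data, where Axin2 is lost. That loss is by TPM and does not hold by posterior mean. With a library left out it was 27 to 28, and 56 to 56 of the other pathway genes were detected, against 55 with both. The count of ordered neighbours was 12. With expected counts in place of TPM it was 20, but there the deposited intervals, which are of TPM, were not required to be apart. Expected counts also compare genes without regard to length, so 12 and 20 are not counts by the same rule. Members 2-fold apart numbered 1, and 2 on the deposited TPM (Frzb and Wnt7a), 7 with no count minimum, where 6 of them have a mean under 10 counts, and 0 once at least 50 counts on average were required. The main transcript was the same in 14 of 16 members at a mean of 50 counts and in 9 of 10 at 200, where fewer genes are compared. Over coding transcripts alone, also chosen after seeing the data, the step from Wnt11 to Wnt5b was 1.36-fold in place of 2.31-fold and that from Lef1 to Axin2 4.06-fold in place of 2.37-fold; the other 10 ordered steps moved by under 1.5 times. The members' median log2 ratio stayed between -0.04 and 0.02. No paired analysis was possible because the series holds 1 group. Depth limits the ligands most, since 7 of 19 had a mean under 10 counts.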
